A study of Caenorhabditis elegans with 3 samples.

Results

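Medium gaps are the stretches of at least 10 kb and under 100 kb that separate neighbouring LEM-2 regions along a chromosome. They were found in the list of called regions from LEM-2 chromatin immunoprecipitation sequencing (ChIP-seq) by taking, on each of the 6 chromosomes, the interval from the end of a region to the start of the next. Of 2926 such gaps, 862 (29.5%) were medium. The others were 1964 short gaps under 10 kb, 84 large gaps from 100 kb to under 1 Mb, and 16 extra large gaps of 1 Mb or longer. The names medium, large and extra large are borrowed from the study, which used them for gaps between LEM-2 subdomains called by another method, so the intervals described here are different ones. The gaps were chosen by the positions of the LEM-2 regions alone, so their number, length and place are descriptions and carry no test.

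LEM-2 is a protein of the inner nuclear membrane with a LEM domain, and in C. elegans it depends on lamin for its location. DNA that is recovered with it is therefore taken to lie at the nuclear periphery. In this worm the chromosomes are holocentric, and the name arms refers to the outer parts of a chromosome, which on the autosomes are richer in repeats and recombine more than the centres. Intervals between attached sites are commonly pictured as loops that reach into the nucleus.

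All libraries came from wild-type N2 mixed-stage embryos, harvested by bleaching, so each profile is a sum over cell types and stages. The LEM-2 library was made with a rabbit antibody against that protein and the control IgG library with a non-specific rabbit immunoglobulin. A library of input DNA is named in the labels as the input of both and was not analysed here. Each group had 1 library. The LEM-2 library carries another code in its title than the control IgG and input libraries, which share one, and followed other versions of the extraction and immunoprecipitation protocols. Antibody and preparation cannot be told apart, and no replicate error exists for any value. Ranges given with counts or shares are 95% intervals that cover counting error only. Read depth is not held in the lists.

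A gap here means that no region was called, not that LEM-2 was absent. Each region has a deposited score, −10 times the base-10 logarithm of its p-value, and the lowest score in the LEM-2 list was 50.01. Weaker enrichment inside a gap is not listed, and sequence to which reads cannot be aligned uniquely may carry no region in either list. The lengths formed a continuous distribution across both limits, as the plot of gap lengths shows, so the limits mark a size range and not a separate kind of gap. The 2 gaps just below the lower limit measured 9994 and 9997 bp, and the 2 just above it 10011 and 10021 bp. At the upper limit, the 2 longest medium gaps measured 98705 and 99037 bp, and the 2 shortest large gaps 100044 and 100225 bp.

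**Figure D1:**
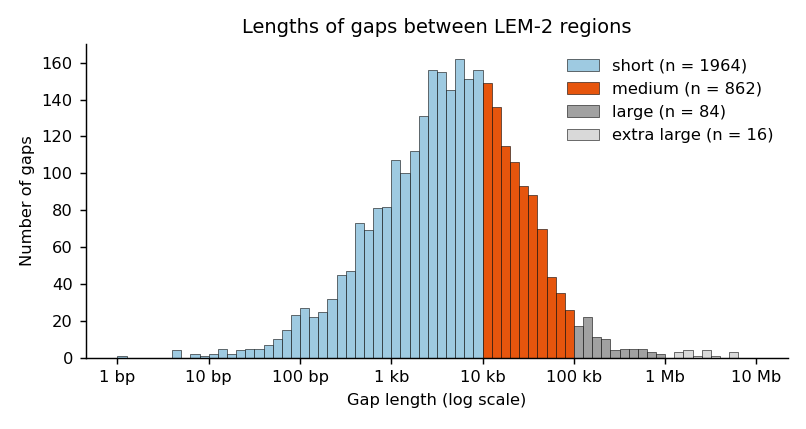
Number of gaps between neighbouring LEM-2 regions (vertical axis) by gap length on a log scale (horizontal axis), with bars coloured by size class. The 862 medium gaps make up the falling right side of a single broad distribution, and no break is seen at 10 kb or 100 kb.

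Together the medium gaps spanned 24.2 Mb, or 24.3% of the 99.5 Mb covered by the lists. This was 25.7% of all gap bases, whereas the 1964 short gaps held 6.05 Mb. The median medium gap was 21539.5 bp, with quartiles of 13970 bp and 35803 bp. Lengths were skewed toward the lower end of the size range. Of the 862, 401 (46.5%) were shorter than 20 kb, and these held 23.4% of the medium gap bases. The 105 gaps of 50 kb or longer (12.2%) held 30.3%.

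Medium gaps lay almost wholly on the chromosome arms, taken as the outer 4 Mb at each end. By midpoint, 794 of the 840 on the 5 autosomes were on an arm (94.5%, with a Wilson interval of 92.8% to 95.9%), although arms make up 48.5% of autosomal bases. The other 46 lay in the centres. Autosomal short gaps (1893 on arms, 30 in centres) and LEM-2 regions (2733 and 118) were placed alike, so this location was not particular to medium gaps. This outer limit was taken from the large LEM-2 domains described in the paper, which rest on LEM-2 too, so the share is not independent of it. Gaps in the centres were longer, with a median of 37571.5 bp (quartiles 17610 bp and 51542 bp) against 21110 bp on the arms (13840 bp and 34596 bp). The share on the arms was 97.3% for gaps of 10 to 15 kb and 86.7% for those of 50 kb or longer, counted over all 6 chromosomes.

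Within the arms, medium gaps were the main component of the sequence. Averaged over the 10 autosomal arms, they filled 54.3% of the bases, short gaps 14.4%, large gaps 15.8% and LEM-2 regions 11.5%. The medium share varied little among arms, from 48.2% on the right arm of chromosome III to 60.8% on the right arm of V. The LEM-2 share varied more in proportion, from 3.75% to 15.8%. Both components come from the same list, and no test was made of this contrast.

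The 10 autosomal arms held between 56 and 96 medium gaps each. Chromosome I had 82 on each arm, with 2.01 Mb on the left and 2.18 Mb on the right. Chromosome II had 77 (2.25 Mb) on the left and 71 (1.95 Mb) on the right. Chromosome III had 88 (2.18 Mb) and 80 (1.93 Mb), and its gaps were the shortest of the autosomes, with a median of 18655 bp over the whole chromosome. The 3 chromosomes thus had similar left and right arms in number and total length.

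Chromosomes IV and V were less even. On IV the left arm had 82 gaps with a median of 20693 bp, whereas the right arm had 56 (exact Poisson interval 42.3 to 72.7) with a median of 34281 bp. Total length was nevertheless alike, at 2.30 Mb and 2.18 Mb. The right arm of IV was also the arm with the lowest LEM-2 share, 3.75%, and its 56 medium gaps were 53.3% of the 105 gaps there. On V the left arm had 80 gaps with a median of 26224 bp and the right arm 96 with a median of 19682 bp. The centre of V held 25 of the 46 medium gaps found in autosomal centres, followed by 12 in the centre of IV, 5 in II, 3 in I and 1 in III.

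The X chromosome had only 22 medium gaps, between 10840 and 96038 bp long, and they covered 0.610 Mb. Of these 20 lay on the left arm, 2 in the centre and none on the right arm. The midpoints of the 20 were all within 1.96 Mb of the left end. On that arm medium gaps filled 12.6% of the bases and extra large gaps 47.1%, in contrast to every autosomal arm, where medium gaps were the largest component. The right arm of X, measured from the last called region, which ended at 17086019, was 99.9% extra large gap.

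**Figure D2:**
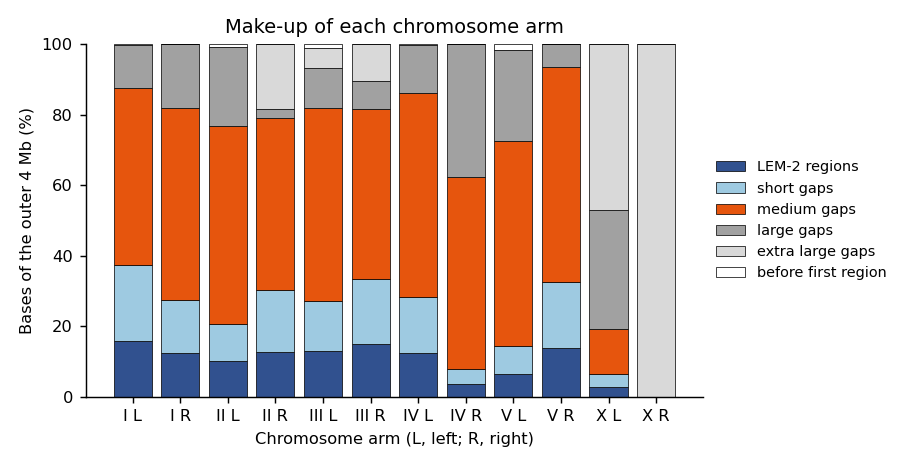
Percentage of the bases in the outer 4 Mb of each chromosome arm (vertical axis) that lie in LEM-2 regions, in each size class of gap, or before the first LEM-2 region, for the left (L) and right (R) arm of each chromosome. Medium gaps fill between 48.2% and 60.8% of each autosomal arm, 12.6% of the left arm of X and none of its right arm.

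Along the autosomal arms the number of medium gaps was nearly level over the outer 3 Mb and then fell. The first Mb from the end held 248, the second 206, the third 213 and the fourth 127. Per arm the median was 25 in the first Mb (range 21 to 28) and 12 in the fourth (range 5 to 25). The spread among arms thus widened inwards. In the fourth Mb the right arm of V had 25, whereas the right arm of III had 5.

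The length of the medium gaps changed little over the same distance. The median was 21091 bp in the first Mb, 22208 bp in the second, 19358 bp in the third and 23299 bp in the fourth, and the quartiles overlapped throughout. Short gaps fell more steeply, as the plot by distance from the end shows. They numbered 71.8 per Mb in the window centred at 1.25 Mb and 4.4 per Mb in that at 4.25 Mb, while medium gaps went from 20.8 to 5.6 per Mb. Medium gaps were therefore 31.2% of all gaps in the first Mb, 23.4% in the second, 29.7% in the third and 38.0% in the fourth.

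**Figure D3:**
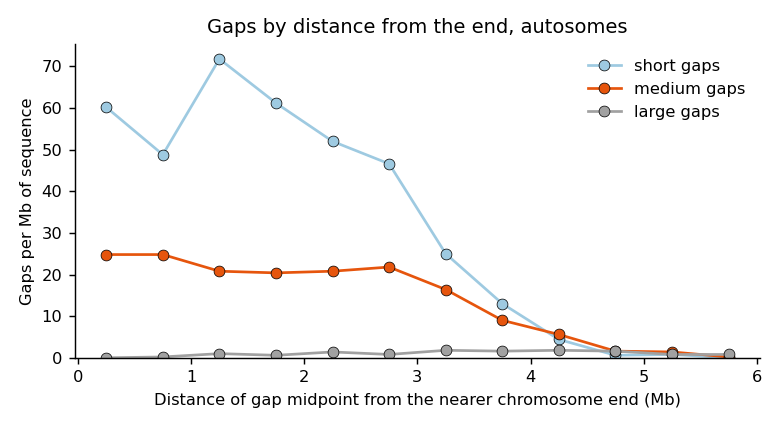
Number of short, medium and large gaps per Mb of sequence (vertical axis) in windows of 0.5 Mb by distance of the gap midpoint from the nearer chromosome end (horizontal axis), summed over the 10 autosomal ends. Medium gaps stay between 20.4 and 24.8 per Mb over the outer 3 Mb and reach 5.6 per Mb at 4.25 Mb.

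Medium gaps occurred both next to one another and among short gaps. Of 859 medium gaps with a further gap to their right, 499 (58.1%) were followed by a short gap, 319 (37.1%) by another medium gap, 38 by a large and 3 by an extra large gap. Short gaps were followed by a medium gap in 25.7% of 1962 cases and large gaps in 42.9% of 84, so this was not particular to medium gaps. The 862 gaps formed 543 unbroken runs, of which 351 held a single gap, 126 held 2 and 66 held 3 or more. Runs of 2 or more thus held 511 of the gaps (59.3%), and no share for a random order of gaps was computed. The run with most gaps had 8, on chromosome V from 1105699 to 1367616 on the left arm, and spanned 262 kb. Positions are as deposited, with 1-based starts. Which genome build the lists use was not established, and no gene was therefore assigned to any interval.

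Between successive medium gaps LEM-2 regions formed clusters, here defined as regions less than 10 kb apart. Of 968 clusters in all, 799 had a medium gap on both sides, and these held 2673 LEM-2 regions (91.2% of the list). A single region made up 319 of the 799 (39.9%), 298 had 2 to 4 regions, 129 had 5 to 9 and 53 had 10 or more. Clusters with 2 or more regions had a median width of 13999.5 bp (quartiles 8622.5 bp and 26815 bp). This median was below that of the medium gaps themselves. The widest lay on chromosome IV at 1225907 to 1362588, where 34 regions spanned 136682 bp.

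LEM-2 regions beside a medium gap scored lower than the others. The 1527 regions that flanked no medium gap had a median score of 102.17 (quartiles 70.7 and 161), the 1086 that flanked a medium gap on 1 side had 85.4 (63.7 and 134), and the 319 with a medium gap on both sides had 75.22 (60.4 and 109). The ranges between the quartiles of these sets overlapped widely. In a sum over whole embryos, contact in fewer cells and weaker contact in each cell cannot be told apart. Regions with scores under 60, close to the floor of the list, were 13.6% of the first set, 18.7% of the second and 24.1% of the third. Scores of 200 or more were found in 17.9%, 12.2% and 8.15%, respectively. The lengths of the regions differed little, with medians of 1334, 1312.5 and 1283 bp.

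The lower median at flanks was seen on each of the 11 arms that had medium gaps. The difference was widest on the left arm of chromosome I, where flanking regions had a median score of 92.6 and the others 120. It was close to nil on the left arm of II (87.1 and 87.7) and the right arm of IV (77.5 and 79.1). In the centres of III and X, with 2 and 4 flanking regions, the flanking median was the higher. Regions beside a gap of 100 kb or longer had a median of 78.6, so the low scores were not limited to medium gaps. Scores and gaps come from the same library and no test was made.

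**Figure D4:**
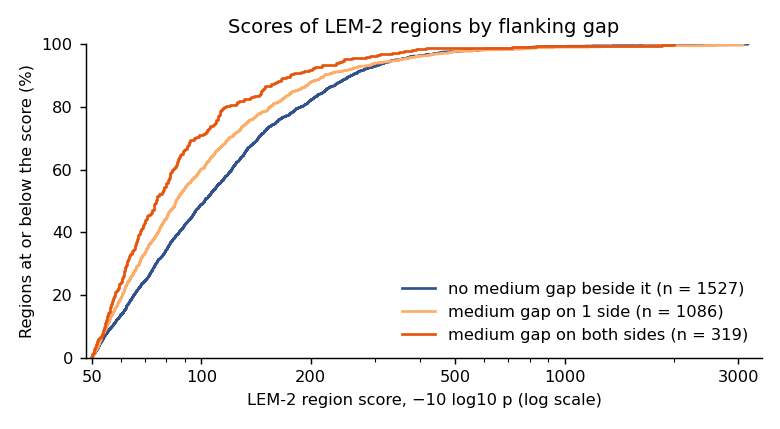
Cumulative percentage of LEM-2 regions (vertical axis) at or below a given score on a log scale (horizontal axis), for regions with no medium gap beside them, with one on 1 side, or on both sides. The curve of the 319 regions between 2 medium gaps lies above the others at scores of 60 and 200, and the median scores are 75.22, 85.4 and 102.17.

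The 2 flanks of a gap were often unequal. The median of the lower score was 65.0 and that of the higher score 112. In 126 of the 862 gaps (14.6%) both flanking regions scored 100 or more, in 366 (42.5%) 1 did, and in 370 (42.9%) neither did. For short gaps the share with both at 100 or more was 25.8%. A flank under 60 bounded 36.1% of medium gaps and 27.3% of short gaps. The inequality had no fixed direction along the chromosome. On the autosomal arms the flank toward the chromosome end scored higher in 390 of 794 gaps (49.1%), and the medians were 81.7 toward the end and 82.7 toward the centre.

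Scores of the flanks were slightly lower at longer gaps. The median was 85.9 for gaps of 10 to 15 kb, 84.9 for 15 to 20 kb, 81.8 for 20 to 30 kb, 77.0 for 30 to 50 kb and 76.3 for 50 to 100 kb. The quartiles of the first and last of these groups, 63.6 to 133 and 61.4 to 108, overlapped over most of their range.

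Individual gaps varied widely in their flanks. The longest medium gap on chromosome I, at 13277692 to 13376396, lay between regions scoring 270.17 and 62.35. On II it spanned 1182475 to 1281511, with scores of 86.36 and 75.37. On III it spanned 3139570 to 3229383, with 60.74 and 84.40. These 3 lay on arms and had at most 1 flank above the median of the list, 91.195.

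The longest on IV, also on an arm, spanned 16524055 to 16622244, with scores of 118.67 and 98.52. On V the longest lay at 16192095 to 16290513, inside the centre, between regions scoring 65.18 and 53.12. The longest on X was in the centre as well, at 11789945 to 11885982, and was bounded by regions scoring 2570.87 and 418.46. It was among the 3 gaps with the highest score for the weaker flank, in a chromosome centre with few LEM-2 regions. The other 2 were on the left arm of III, at 1265133 to 1299204 (scores 1164.04 and 3100) and at 387836 to 414850 (421.82 and 489.43). None of these 3 held a control IgG region.

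The control IgG regions were not used to choose the gaps. A region was counted inside a gap if its midpoint lay there. Medium gaps held 102 of the 415 control IgG regions (24.6%), close to the 24.3% of the sequence they span. Their density was 4.21 per Mb (exact Poisson interval 3.44 to 5.11), against 4.17 per Mb over the whole span. The whole span includes the LEM-2 regions, which held 106 control IgG regions at 21.3 per Mb. At least 1 control IgG region was found in 92 medium gaps (10.7%, Wilson interval 8.78% to 12.9%), compared with 5.6% of all 2926 gaps. A longer gap has more room for a region, so the density per Mb is the fairer measure. A single region was held by 83 gaps, 2 by 8 gaps and 3 by 1 gap.

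Medium gaps had a higher density of control IgG regions than short gaps, which held 9 regions at 1.49 per Mb (interval 0.681 to 2.83). The ratio of medium to short was 2.83 (exact conditional interval 1.43 to 6.37). Short gaps had a median of 2260.5 bp and a lower quartile of 770 bp, and control IgG regions a median of 1089 bp. A gap shorter than a region cannot hold it clear of both flanks, and the ratio was not adjusted for this. Against large gaps, with 80 regions at 3.81 per Mb, the ratio was 1.11 (0.817 to 1.501), so no difference from them was detectable. Against extra large gaps, at 2.53 per Mb, it was 1.67 (1.26 to 2.20). The lowest ratio was to the LEM-2 regions themselves, where 106 control IgG midpoints gave 21.3 per Mb and a ratio of 0.197 (0.149 to 0.262).

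Arms and centres were then separated, because extra large gaps lie mostly in centres. On the autosomal arms medium gaps held 95 control IgG regions at 4.37 per Mb (3.54 to 5.35), below the 6.28 per Mb of the arms as a whole. That total includes the LEM-2 regions on arms, which held 96 at 20.8 per Mb. Of the other gaps on arms, short gaps had 1.56 and large gaps 6.18 per Mb. There the ratio to short gaps was 2.80 (1.41 to 6.31), and that to large gaps was 0.708 (0.481 to 1.06). In the autosomal centres medium gaps held 5 at 2.67 per Mb (0.867 to 6.23), with ratios of 1.06 (0.323 to 2.76) to large gaps and 1.19 (0.374 to 2.92) to extra large gaps. Within the centres, where medium gaps held only 5 regions, both intervals included 1.

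Among arms the density in medium gaps ranged from 1.84 per Mb on the right arm of IV (4 regions, 0.500 to 4.70) to 7.27 on the right arm of III (14 regions, 3.97 to 12.2). Whole chromosomes I and III had 5.60 and 5.56 per Mb, respectively, followed by V with 4.36, X with 3.28, II with 3.16 and IV with 2.79. The exact Poisson intervals of the 6 chromosomes all overlapped.

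With the full list of LEM-2 regions, control IgG regions were sparse near the edges of medium gaps. Their median distance from the nearer edge was 30.8% of the gap length (26.5% to 36.2%), where an even spread gives 25%. With only LEM-2 regions scoring at least 100 it was 25.4% (20.3% to 30.6%), so the sparseness depended on the list. Within 1 kb of the nearer edge there was 1 region in 1.72 Mb, or 0.580 per Mb (0.0147 to 3.23). From 1 to 2 kb the density was 1.74 per Mb (0.359 to 5.09), from 2 to 5 kb it was 2.71 (1.48 to 4.54), and from 5 to 10 kb it was 4.79 (3.23 to 6.84). At 10 kb or more from the edge it was 5.79 (4.35 to 7.55). The density thus rose inwards, and the intervals for the outermost 1 kb and for 10 kb or more did not overlap. None of the 102 regions counted reached a flanking LEM-2 region, and a region that stays clear of the flank cannot have its midpoint at the very edge, so the low value in the outermost 1 kb follows in part from the counting by midpoint. Counting any overlap gave 111 regions in place of 102. Within 5 kb of an edge, medium gaps had 2.09 per Mb (1.24 to 3.3002) and short gaps, which reach no farther, 1.49 per Mb (0.681 to 2.83). At these distances from a LEM-2 region no difference between the 2 classes was detectable. Large gaps had 3.57 per Mb within 5 kb of an edge (3 regions, 0.737 to 10.4) and 3.33 per Mb beyond 50 kb (2.40 to 4.51).

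By gap length the density was lowest in the shortest group but did not rise throughout. Gaps of 10 to 15 kb had 6 control IgG regions at 1.91 per Mb (0.702 to 4.16). The longer groups had, in order of length, 4.36, 5.05, 4.95 and 3.95 per Mb. The intervals of all groups overlapped, that of the shortest included. Medium gaps that held a control IgG region had a median length of 36954 bp, those without 19943.5 bp, and a longer gap has more room for a region. Median flank scores of these 2 sets were 80.025 and 81.34.

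**Figure D5:**
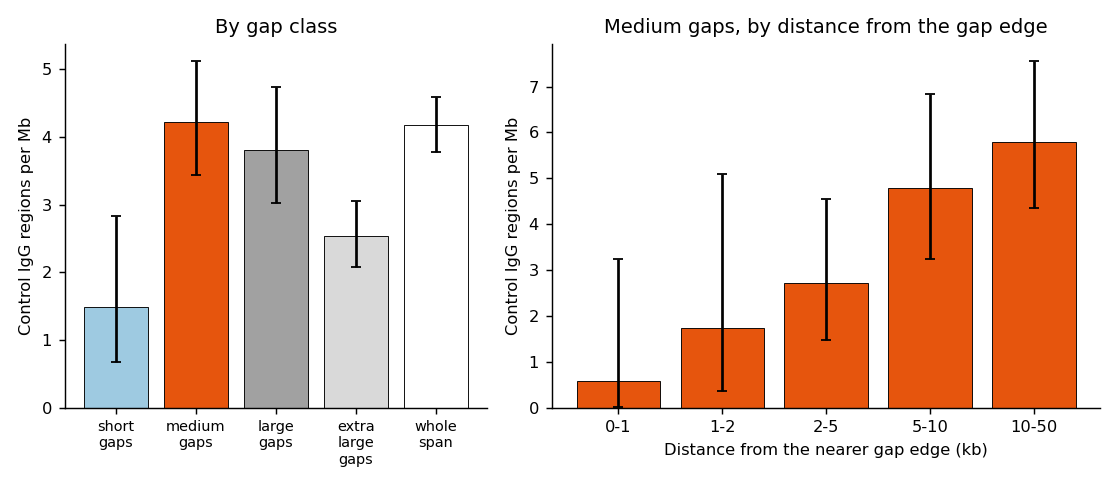
Control IgG regions per Mb (vertical axes) by class of gap and over the whole span (left), and in medium gaps by distance of the region midpoint from the nearer gap edge in kb (right). Bars are densities and lines are exact Poisson 95% intervals, and the density in medium gaps rises from 0.580 per Mb within 1 kb of an edge to 5.79 per Mb at 10 kb or more.

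The control IgG regions inside medium gaps were of ordinary strength for that list. Their median score was 67.0 (quartiles 55.9 and 83.6), compared with 65.25 for the 107 that overlapped a LEM-2 region and 63.87 for the whole list. Their median length was 1486.5 bp, against 1089 bp for all control IgG regions. The gap with 3 of them lay on the right arm of chromosome III at 10615908 to 10698028. The densest of those with 2 were at 11194437 to 11208807 on III, a gap of 14371 bp, and at 13012148 to 13028491 on I, a gap of 16344 bp.

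LEM-2 regions that stood alone between 2 medium gaps coincided with control IgG regions more often than regions with no medium gap beside them, and regions beside a longer gap had a similar share. An overlap of at least 1 bp with the control list was found for 3.58% of all 2932 LEM-2 regions. The share was 6.27% (20 of 319, Wilson interval 4.09% to 9.48%) with a medium gap on both sides, 3.87% (42 of 1086, 2.87% to 5.19%) with a medium gap on 1 side, and 2.82% (43 of 1527, 2.10% to 3.77%) with none. For regions beside a gap of 100 kb or longer, some of which also flank a medium gap, it was 6.88% (11 of 160, 3.88% to 11.9%). The ratio of the share with medium gaps on both sides to that with none was 2.23 (exact conditional interval 1.24 to 3.87), and on the autosomal arms alone it was 2.57 (1.41 to 4.52). No difference was detectable between regions with a medium gap on 1 side and those with none, with a ratio of 1.37 (0.876 to 2.15) over all chromosomes and 1.40 (0.866 to 2.26) on the arms.

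The 20 lone regions that overlapped the control scored higher than the rest of their kind. Their median score was 153 (quartiles 92.2 and 201) and their median length 2032 bp, whereas the other 299 had 73.9 (59.7 and 103) and 1270 bp. Regions flanking no medium gap showed the same order, with 185 for 43 overlapping regions and 101 for 1484 others. Regions with a medium gap on 1 side differed less. The 42 overlapping regions had 107 (quartiles 71.0 and 155) and the 1044 others 85.0 (63.6 and 133). Overlapping regions were longer in these sets too. Their median lengths were 2129 against 1315.5 bp with no medium gap and 1849 against 1299 bp with 1. A longer region has more room to meet a control IgG region by 1 bp, and the scores were not adjusted for length.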

How the data were processed

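The authors deposited 1 list of called regions for the LEM-2 library and 1 for the control IgG library, each with chromosome, start, end, a MACS peak name and a score. In the column key that the authors deposited, a region's score is its p-value as −10 log10. The submitters' processing notes name the aligner BWA, whereas the methods of the paper name MAQ with uniquely aligned reads and the ce4 assembly, so neither the aligner nor the build behind these lists was established. The MACS version and settings are not given in the sources used here. Per those methods the control IgG library had fewer aligned reads than the LEM-2 library, and the effect of this on the number of control regions was not tested. Scores depend on depth and were compared within a list only.

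Gaps were computed in Python 3.11.15 with pandas 2.3.3 and numpy 2.4.6, given intervals with scipy 1.17.1 and drawn with matplotlib 3.10.9. No LEM-2 regions touched or overlapped. In the control IgG list 6 starts below 0 were set to the first base. Chromosome ends were taken as the largest end coordinate in either list. A gap was placed by its midpoint, and shares of arm bases were counted base by base. Counts carry exact Poisson intervals, shares Wilson intervals and ratios of densities or shares exact conditional intervals, the last with both counts treated as Poisson. The interval of a median was taken from the ranked values. No p-value was computed, since gaps of 1 library are not replicates. The gap finding was checked on simulated lists. The gaps, comparisons and lists were chosen with earlier results of these data known. Gaps named individually are the longest on each chromosome, the 3 with most control IgG regions, the 3 with the highest score of the weaker flank, and the 2 on either side of each length limit. The run of 8 gaps, the widest cluster and the arms singled out were chosen after their values were seen. Alternatives were other length limits and arm extents, subsets of either list, merging within 1 kb, other rules for a control IgG region to count as inside, and leaving out each chromosome.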

Additional observations from a re-analysis of the deposited data

How the results depend on the processing

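Of 58 values recomputed for 8 results, without counting those that left out a chromosome, 37 stayed within counting error, or within 1.5 times for number and total length. The other 21 moved. Values were sorted only as the same or moved, and a reversal was not looked for. The higher-scoring 50% of LEM-2 regions gave 564 medium gaps, 98.6% of them on autosomal arms, a median flank score of 141 and a longer-than-10-kb next neighbour in 46.4%, against 41.9% in the full list. LEM-2 regions scoring at least 100 gave 517 gaps, 98.8% on arms, a median flank score of 152, a next neighbour of 10 kb or longer in 51.8%, and control IgG regions at a median of 25.4% of the gap length from the nearer edge, against 30.8% in the full list. Under these choices flank scores rise by construction, and the cause of the other changes was not tested. An even spread of control IgG regions over a gap gives 25%. The higher-scoring 50% of LEM-2 regions gave 26.9% (22.6% to 32.2%). Merging within 1 kb left the medium gaps as they were and moved the flank score to 86.7 (82.83 without merging) and the neighbour share to 46.4%. A merged region took the highest score of its parts, and gaps of 1 kb or less no longer counted as neighbours. Both values are thus pushed upward by construction. A lower limit of 5 kb gave 1331 gaps, and one of 20 kb gave 461 gaps, 92.7% on arms and a flank score of 79.4. Here the neighbour share counted neighbours of at least the new limit, with 56.6% for 5 kb and 27.9% for 20 kb. These 2 shares are therefore not the same measure as the 41.9% of the main setting. Arms of 3 Mb held 79.4% and arms of 5 Mb 98.8%. The higher-scoring 50% of control IgG regions gave 2.31 regions per Mb and 0.472% of medium gap bases, against 4.21 and 0.755%. Keeping only part of the control list lowers both values by construction. The ratio of medium to short gaps stayed above 1 with this list (2.80, interval 1.13 to 8.95) and when any overlap counted (2.31, 1.27 to 4.61). Neither ratio was adjusted for the little room in short gaps.

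Leaving out each chromosome in turn gave 661 to 840 gaps, 18.5 to 23.6 Mb, 93.3% to 96.7% on arms (the latter without V), flank scores of 80.8 to 85.2, 3.92 to 4.59 control IgG regions per Mb, 0.681% to 0.844% of bases, distances of 29.9% to 31.9% and neighbour shares of 38.9% to 45.1%. No paired analysis was possible because there was a single library per antibody. The comparisons in the centres rest on 5 control IgG regions in 1.87 Mb of medium gaps, and weak LEM-2 enrichment below the list's floor cannot be seen in any gap.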

Other observations

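The chromosome ends, which have a LEM-2 region on 1 side only, fall outside the rule. The first LEM-2 region began at 3286 on chromosome X, 7273 on IV, 10882 on I, 35653 on II, 48735 on III and 63605 on V. The stretches before these starts held 9 control IgG regions in all, at least 1 on each of the 6 chromosomes. In 6 cases the control IgG region had a start below 0 in the deposited list. At the right, the last LEM-2 region also set the chromosome end used here on all 6 chromosomes, so no stretch was measured there. Any sequence beyond it was left out of the right arms.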
